A study of Homo sapiens with 9 samples.

Results

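U937 cells heated at 44 °C were compared with U937 cells heated at 42 °C after both had recovered for 6 h. U937 is an established human line of monocyte-like lymphoma cells. Both cultures had been heated for 15 min and returned to 37 °C, and the comparison uses 2 of the 9 arrays of the series, taken by their labels. The 6 other heated arrays (44 or 42 °C with 0, 1 or 3 h of recovery) and 1 array of unheated control cells kept at 37 °C are given beside them where they help to read a value. The pair was set up with earlier results of these data known, to describe what still differed between the temperatures once chaperone genes stood at like levels.

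Gene expression was measured on Affymetrix Human Genome U133 Plus 2.0 arrays, on which sets of short probes near the 3′ end of a transcript give 1 signal per probe set. Each condition had 1 array, so no value below has a replicate, no test could be made, and a difference describes these cultures alone. In RNA of a whole culture, fewer cells that express a gene and less of its RNA per cell cannot be told apart. The number of arrays limits the precision. Signals were scaled so that each array had a trimmed mean of 100, and 12.5, the median over all arrays, served as a floor for lower values. The log2 difference below is log2 of the 44 °C signal over the 42 °C signal, and a gene is said to have risen or fallen at 44 °C when the signals differed by 2-fold or more. A difference with 1 side at the floor is a bound. Before scaling, the trimmed mean of the 44 °C array was 191, against 109 on the 42 °C array. Of all probe sets, 48.3% on the 44 °C array and 52.6% on the 42 °C array lay above the floor, the lowest and the highest share of the 9 arrays. The ratio of 3′ to 5′ signals of ACTB, a sign of RNA integrity, was 1.18 and 1.22 on the same arrays.

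Heat unfolds proteins. The unfolded proteins occupy chaperones and so free heat shock factor 1, which binds heat shock elements in the promoters of chaperone genes and drives them until the new chaperones bind it again. Cells that survive the stress then return to other tasks, among them signalling through cytokines and growth factors. SKI and SKIL, which recur below, are co-repressors that bind SMAD proteins and so restrain transcription in response to TGF-beta, and SKIL is itself a TGF-beta target. CCL20 is a chemokine that attracts leukocytes carrying the receptor CCR6 and is a well known target of NF-kB.

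The start regions of 4 genes are shown because the genes stand for the contrasts described below, namely CCL20, SKIL and DUSP1, which rose at 44 °C, and HSPA6, an inducible HSP70 gene that did not pass 2-fold. Each runs 5′ to 3′ from 250 bases before the start site of the gene to 50 bases after it, as RefSeq gives it on GRCh38.p14. Capitals mark letters that match 1 of 6 searched motifs on either strand. These were the inverted pair of heat shock element units GAANNTTC, the NF-kB consensus, the AP-1 motif TGANTCA, the cyclic AMP response element TGACGTCA, the SMAD motif GTCTNGAC and the TATA box TATAAA, with N for any base. The motifs and the 4 genes were chosen after the values and matches had been seen.
CCL20 (chr2:227813592-227813891, plus strand): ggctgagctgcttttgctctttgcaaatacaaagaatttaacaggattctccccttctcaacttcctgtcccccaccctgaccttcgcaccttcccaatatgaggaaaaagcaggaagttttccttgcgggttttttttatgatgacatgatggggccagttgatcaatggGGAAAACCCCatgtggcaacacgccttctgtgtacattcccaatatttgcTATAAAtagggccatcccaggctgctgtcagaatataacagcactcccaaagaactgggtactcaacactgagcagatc
SKIL (chr3:170357465-170357764, plus strand): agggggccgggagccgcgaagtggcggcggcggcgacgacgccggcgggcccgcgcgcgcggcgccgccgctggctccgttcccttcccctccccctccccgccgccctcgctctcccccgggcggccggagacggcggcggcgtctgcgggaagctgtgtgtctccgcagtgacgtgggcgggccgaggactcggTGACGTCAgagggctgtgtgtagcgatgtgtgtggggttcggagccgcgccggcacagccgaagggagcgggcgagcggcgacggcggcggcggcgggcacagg
DUSP1 (chr5:172771146-172771445, minus strand): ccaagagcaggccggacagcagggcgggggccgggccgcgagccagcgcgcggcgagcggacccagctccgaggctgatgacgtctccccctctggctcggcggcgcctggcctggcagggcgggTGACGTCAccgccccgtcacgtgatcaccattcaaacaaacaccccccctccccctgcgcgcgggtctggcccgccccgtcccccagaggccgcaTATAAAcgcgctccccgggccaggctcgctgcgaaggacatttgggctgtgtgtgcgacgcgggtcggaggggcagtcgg
HSPA6 (chr1:161524290-161524589, plus strand): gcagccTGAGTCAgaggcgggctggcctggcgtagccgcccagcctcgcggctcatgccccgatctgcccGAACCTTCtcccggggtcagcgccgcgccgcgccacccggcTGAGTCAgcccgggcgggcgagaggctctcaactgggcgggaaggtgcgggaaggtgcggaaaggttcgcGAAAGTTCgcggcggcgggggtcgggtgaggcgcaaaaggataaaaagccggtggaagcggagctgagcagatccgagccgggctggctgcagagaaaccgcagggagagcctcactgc

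In the CCL20 window the NF-kB consensus matched on the minus strand at -79 to -70 from the start site, and the TATA box lay at -29 to -24. The cyclic AMP response element stood at -54 to -47 in SKIL and at -125 to -118 in DUSP1, which also had a TATA box at -30 to -25. The HSPA6 window held the heat shock pair at -180 to -173 and -69 to -62 and the AP-1 motif at -244 to -238 and -139 to -133. No 2 matches in these windows overlapped. Over 35116 windows of the same length, 6.77% held the heat shock pair, 5.91% the NF-kB consensus, 7.71% the AP-1 motif, 1.85% the cyclic AMP response element, 1.54% the SMAD motif and 11.5% the TATA box. The windows of SUCO and RASEF, described below, held none of these letters. Among the named genes with a window, 23 rose and 19 fell. The heat shock pair was found in 2 of the risen genes (ERCC2 and JUN) and 1 of the fallen ones, the NF-kB consensus in 1 of each (CCL20 and LTB), the cyclic AMP response element in 2 of each, and the AP-1 motif in 3 of the risen genes and 0 of the fallen ones. A match is a string of letters and says nothing of binding.

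The chaperone genes stood at like levels on both arrays. Of 36 listed chaperones and cochaperones, 35 were measured, and 0 rose and 0 fell at 44 °C. Over all 19775 genes, 439 passed 2-fold, which is 2.22%. A count of 0 in a list of this size is near that share, and the pair was set up with like chaperone levels in view. The median log2 difference of the chaperones was 0.01, and that of all genes above the floor on both arrays was -0.01. HSPA6 had a signal of 6587 on the 44 °C array and 4525 on the 42 °C array, against 138 in control cells. DNAJB1, the cochaperone that brings unfolded clients to HSP70, had 7378 and 6359, against 742 in control cells. BAG3, which couples HSP70 to autophagy, had 3602 and 3347, against 176. All 3 genes were far above control at both temperatures and differed by 1.46-fold or less between the temperatures under this scaling. Their log2 differences were 0.54, 0.21 and 0.11, and 0.77, 0.55 and 0.19 with quantile normalisation.

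Of the 34 chaperones above the floor on both arrays, 16 were below 0 and 18 above, and with quantile normalisation 8 and 26. Over all genes above the floor on both arrays, 50.9% were below 0, and 46.5% with quantile normalisation. HSPH1, an HSP110 nucleotide exchange factor, had 7209 at 44 °C and 8914 at 42 °C. The small heat shock protein HSPB1 had 6867 at 44 °C and 8176 at 42 °C. HSP90AA1, the inducible cytosolic HSP90, had 8514 at 44 °C and 10760 at 42 °C. Their log2 differences were -0.31, -0.25 and -0.34, and 0.05, 0.07 and 0.06 with quantile normalisation. The mitochondrial chaperonin genes HSPD1 and HSPE1 differed by -0.30 and -0.04, and by 0.21 and 0.31 with quantile normalisation. The other HSPD1 probe sets above the floor differed by -0.27, -0.64 and 1.25, the last with 546 at 44 °C and 230 at 42 °C. Those of HSPH1 differed by -0.41 and 0.88. Since the sign of the probe sets used for these 5 genes turned with the scaling, and others of HSPD1 and HSPH1 disagreed, no direction is given for them. CRYAB, a small heat shock protein, had 175 at 44 °C and 115 at 42 °C, and SERPINH1, the collagen chaperone of the endoplasmic reticulum, had 371 and 506. Both were under the floor in control cells. The largest difference of the list was that of DNAJB2, an HSP70 cochaperone, at 0.79, which became 1.02 with quantile normalisation and was then the 1 chaperone past 2-fold. HSPA1A, HSPA1B and HSPA8 are not described, since the annotation gives them no unshared probe set.

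With the trimmed mean scaling, the match at 6 h followed a difference at earlier times. The median log2 difference of the chaperones between the temperatures was -0.35 at 0 h, -0.58 at 1 h, -0.58 at 3 h and 0.01 at 6 h. Ribosomal protein genes, which are also bright, had medians of -0.08, -0.49, -0.73 and -0.39 at the same times. The earlier medians were not computed with quantile normalisation, so no direction is given for the chaperone median at 1 and 3 h. DNAJA4, an HSP40 cochaperone, had signals of 40.8, 165, 557 and 1244 at 0, 1, 3 and 6 h after 44 °C, and of 259, 769, 894 and 877 at the same times after 42 °C. HSPA6 had 131, 3988, 6645 and 6587 after 44 °C, and 4751, 7245, 10652 and 4525 after 42 °C. The 44 °C signal of HSPA6 was thus below the 42 °C signal at the first 3 times and above it at 6 h. Against the control array, which both comparisons share, the median chaperone was 0.89 higher in log2 at 44 °C and 0.81 higher at 42 °C.

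**Figure D1:**
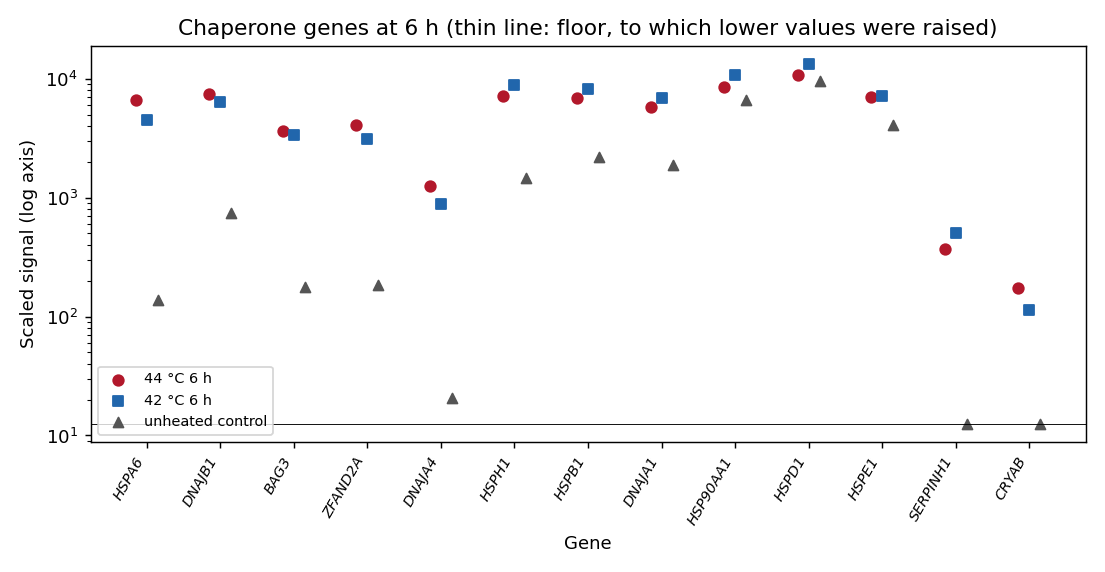
Scaled signal (log axis) of 13 chaperone genes on the 44 °C array (circles), the 42 °C array (squares) and the unheated control array (triangles), 1 array each at 6 h. The circle and the square of each gene lie close together, while HSPA6, BAG3, DNAJA4, SERPINH1 and CRYAB stand far above control.

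Across all genes the arrays differed little, and most differences past 2-fold were in dim genes. Of 19775 genes, 168 (0.85%) rose and 271 (1.37%) fell at 44 °C, and only 6 and 4 of them passed 4-fold. Among genes above the floor on both arrays, the SD of the log2 difference was 0.409 over 10796 genes. In the dimmest of 10 bins of mean signal, 6.20% of those genes passed 2-fold, and in the brightest 0.278% did. With quantile normalisation 254 genes (1.28%) rose and 167 (0.845%) fell, so the balance of the directions turned, with 38.3% of calls higher under the first scaling and 60.3% under the second. The sets called under both scalings held 165 rises and 165 falls. At 3 h, 202 genes (1.02%) had risen and 193 (0.976%) had fallen between the same temperatures.

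**Figure D2:**
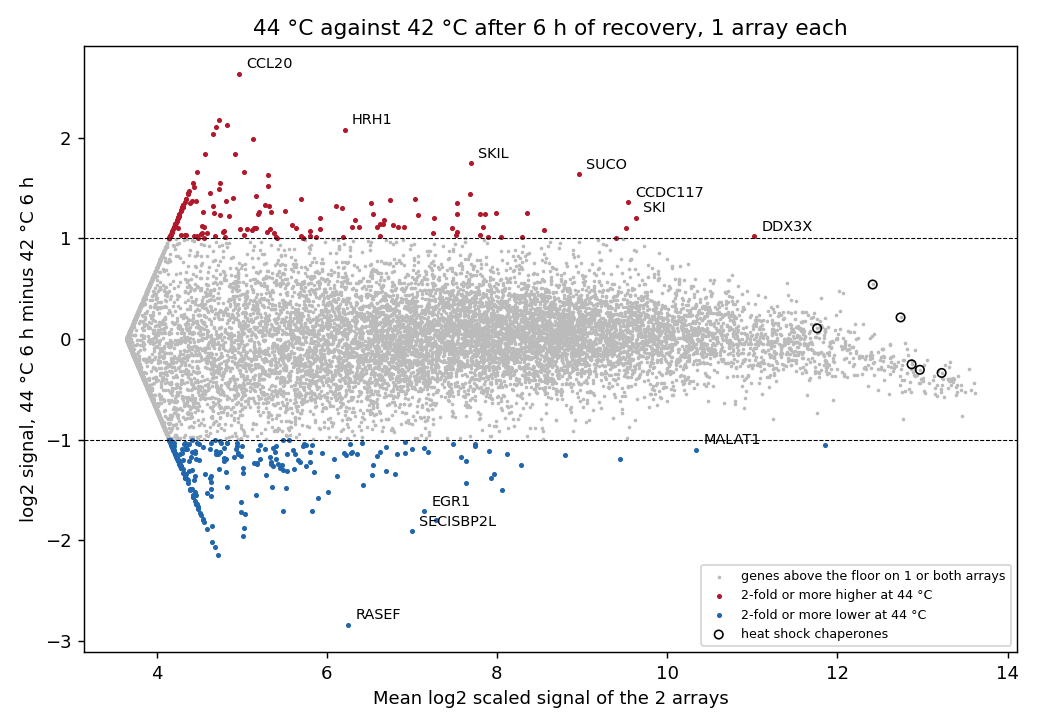
Each point is a gene above the floor on 1 or both arrays, with the mean log2 scaled signal of the 2 arrays at 6 h on the x axis and the log2 difference between 44 °C and 42 °C on the y axis; dashed lines mark 2-fold. The straight edges at the left are genes with 1 side at the floor, named points far from 0 at middle and high signal are the genes described in the text, and the open circles are 6 heat shock chaperones, all inside the dashed lines.

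The genes of the TGF-beta and SKI list that passed 2-fold were all higher at 44 °C. Of 26 listed genes 25 were measured, 5 rose (SKIL, PMEPA1, SKI, LTBP3 and ID3) and 0 fell, while the median member differed by 0.01. Over all genes 0.85% rose and 1.37% fell. The list was drawn up with SKIL known to differ, so its count is no independent evidence of a direction. SKIL had a signal of 380 on the 44 °C array and 113 on the 42 °C array, against 358 in control cells, a 3.35-fold difference. On the probe set used, the 44 °C array thus stood near control and the 42 °C array well below it. Over recovery, SKIL had 96.6, 192, 284 and 380 at 0, 1, 3 and 6 h after 44 °C, and 120, 143, 190 and 113 after 42 °C. On this probe set both signals were far under control directly after heating, and they were furthest apart at 6 h. The 3 SKIL probe sets above the floor differed by 0.86, 1.11 and 1.75 at 6 h, all higher at 44 °C. Their levels against control differed. At 6 h, 1 of them had 62.4 at 44 °C and 28.9 at 42 °C, against 12.4, under the floor, in control cells. Another had 88.3 and 48.7, against 54.0 in control cells. Its 42 °C signal was above control at 0 h, at 73.8, and was 280 at 1 h.

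SKI, the homologue of SKIL, had 1207 on the 44 °C array and 524 on the 42 °C array, against 514 in control cells. Here it was the 42 °C array that matched control. Its 3 probe sets differed by 1.20, 0.56 and 0.03, and the last of these was at the edge of the floor. PMEPA1, a membrane protein that sequesters SMAD proteins and is induced by TGF-beta, had 67.1 at 44 °C and 23.4 at 42 °C, and was under the floor in control cells, at 11.1. All 3 of its probe sets were higher at 44 °C, by 0.58, 1.52 and 1.90. LTBP3, a latent TGF-beta binding protein, had 31.6 at 44 °C and 15.5 at 42 °C. A second probe set of LTBP3 differed by -0.96, so its direction is uncertain. ID3, an inhibitor of helix-loop-helix factors, had 25.2 at 44 °C and 9.11, under the floor, at 42 °C.

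The receptors and SMAD proteins of the pathway did not pass 2-fold. TGFBR1, the type I receptor, had 2460 at 44 °C and 2178 at 42 °C, and TGFBR2, the type II receptor, had 471 and 541. SMAD3, which carries the signal to the nucleus, had 127 and 117. SMAD7, the inhibitory SMAD and like SKIL a feedback target, had 186 and 144, a log2 difference of 0.36. The lowest member was SMAD6, the inhibitory SMAD of BMP signalling, at -0.79. The ligand TGFB1 had 573 at 44 °C and 432 at 42 °C, against 754 in control cells.

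**Figure D3:**
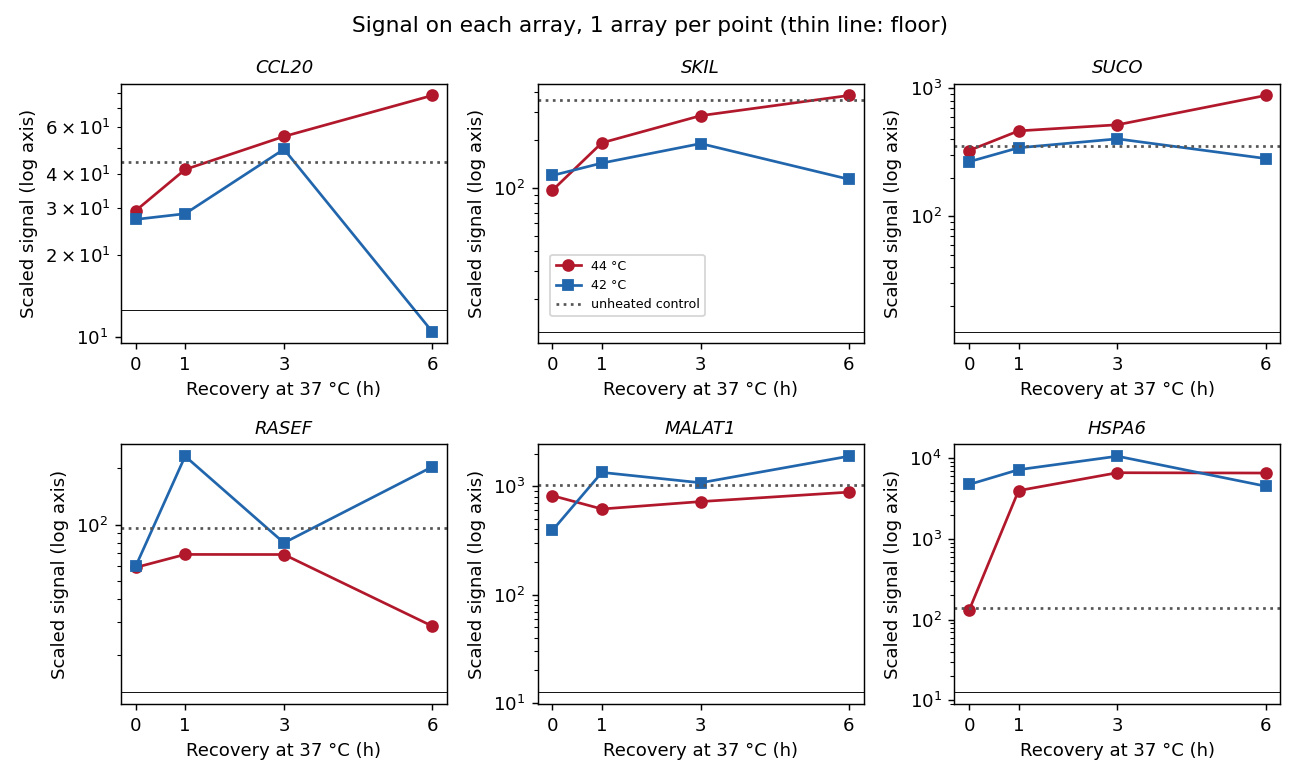
Scaled signal (log axis) against recovery time in h for 6 genes, with circles for 44 °C, squares for 42 °C, a dotted line for the unheated control and a thin line for the floor; each point is 1 array. CCL20, SKIL and SUCO are furthest apart at 6 h with 44 °C above, RASEF and MALAT1 have 44 °C below at 6 h, and the HSPA6 lines cross between 3 and 6 h.

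CCL20 had the largest rise of all named genes. Its signal was 78.2 on the 44 °C array and 10.4, under the floor, on the 42 °C array, against 44.4 in control cells, so it was at least 6.23-fold higher at 44 °C. Over recovery it had 29.3, 41.6, 55.1 and 78.2 at 0, 1, 3 and 6 h after 44 °C, and 27.2, 28.5, 49.4 and 10.4 after 42 °C. The temperatures were close at the first 3 times, and the difference at 6 h rests on a high 44 °C value together with the lowest 42 °C value of the 4. A single probe set measures the gene, and all its signals were in the dim range.

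Of 28 listed chemokines and cytokines 26 were measured and 21 were above the floor on 1 or both arrays. CCL20 was the 1 member that rose, LTB the 1 that fell, and the median difference was -0.10. Over all genes 0.85% rose and 1.37% fell, and counts of 1 in a list of this size are near those shares. With quantile normalisation 2 members rose (CCL20 and CXCL16), 1 fell, and the median was 0. CXCL16, a membrane-bound chemokine, had 25.2 at 44 °C and 13.2 at 42 °C, a log2 difference of 0.93. CXCL8, the neutrophil chemokine, had 401 at 44 °C and 218 at 42 °C, a log2 difference of 0.88. CCL2, the monocyte chemokine, had 255 and 307, both far under the 1464 of control cells. TNF had 33.1 and 63.9, a log2 difference of -0.95, and IL1B had 138 and 122. LTB, the lymphotoxin beta subunit, had 15.3 at 44 °C and differed by -1.38. Of 20 measured NF-kB subunits and feedback genes, 0 rose and 0 fell, which is near the 2.22% of all genes that passed 2-fold.

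HRH1, IL1RAP, FCAR and TNFSF14 also rose. Of 33 measured leukocyte surface genes 1 rose (FCAR) and 0 fell, and 0 of 27 genes for RGS proteins and G protein coupled receptors passed 2-fold. Both counts are near the 2.22% of all genes that passed 2-fold. HRH1, the histamine H1 receptor, had 152 on the 44 °C array and 36.0 on the 42 °C array, against 30.7 in control cells. Over recovery it had 18.4, 63.2, 99.6 and 152 after 44 °C, and 31.9, 43.3, 64.3 and 36.0 after 42 °C, so the 44 °C signal was higher from 1 h on. A second, dimmer probe set of HRH1 differed by 0.17. IL1RAP, the accessory chain of the interleukin 1 receptor, had 174 at 44 °C and 66.5 at 42 °C, and had been 139 and 41.0 at 3 h. Its second probe set above the floor differed by 0.16. FCAR, the Fc receptor for immunoglobulin A, had 147 at 44 °C and 66.4 at 42 °C, against 200 in control cells, and all 3 of its probe sets were higher, by 0.53 to 1.15. TNFSF14, the cytokine LIGHT, had 295 at 44 °C and 116 at 42 °C, against 111 in control cells. At 0, 1 and 3 h its order had been the other way, with 61.0, 129 and 290 after 44 °C and 324, 390 and 451 after 42 °C. It was the 1 gene among 6309 with 2 or more probe sets above the floor in which every probe set rose (1.35 and 1.37), and it was picked for that after the values were seen.

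SUCO, a SUN domain protein of the endoplasmic reticulum that is needed for bone formation in mice, was among the brighter of the large rises. Its signal was 880 on the 44 °C array and 283 on the 42 °C array, against 355 in control cells, a 3.11-fold difference. It had 327, 465, 519 and 880 over recovery from 44 °C, and 267, 343, 403 and 283 over recovery from 42 °C. As for SKIL and CCL20, the 44 °C signal was highest at 6 h while the 42 °C signal at 6 h was below that at 3 h. These genes, like RASEF below, were chosen for this comparison with earlier results of these data known. That choice favours a difference at 6 h, so the like course is no independent evidence. SUCO has 1 probe set. Of 22 measured genes for exit from the endoplasmic reticulum, collagen and SUN proteins, SUCO was the 1 that rose and 0 fell. That count is near the 2.22% of all genes that passed 2-fold. SUN1 differed by -0.12 and SUN2 by -0.80.

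The other top rises had no shared list. CCDC117 had 1191 at 44 °C and 463 at 42 °C, against 257 in control cells, and its second probe set was higher by 0.70. In log2, the rises were 2.13 for PCSK7, a proprotein convertase, 1.99 for DCUN1D3, which acts in cullin neddylation, and 1.39 for FBXW5, an F-box protein of ubiquitin ligases. The second probe sets of PCSK7 and DCUN1D3 differed by 0.36 and 0.12. ERCC2, a helicase of the transcription and repair factor TFIIH, rose by 1.39, but its second probe set differed by -0.41. SLC6A13, a transporter of GABA and taurine, rose by 2.18, a bound, since its 42 °C signal of 9.71 was under the floor. TTC38 and NRDE2 rose by 1.84 and 1.63, and CASTOR2, a regulator of mTORC1, rose by 1.42. The second probe sets of SLC6A13 and TTC38 above the floor differed by -0.27 and 0.09. Apart from FBXW5 at 214 and CCDC117, their 44 °C signals lay between 56.9 and 84.0, in the range where 2-fold differences were common. Of 22 measured p53 targets and growth arrest genes 1 passed 2-fold, near the 2.22% of all genes. This was CDKN2B, an inhibitor of the cyclin D kinases. It had dim signals of 31.6 at 44 °C and 12.1, under the floor, at 42 °C, so its rise of 1.33 is a bound.

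Among the early response genes, JUN and the MAP kinase phosphatase gene DUSP1 rose and EGR1 fell. JUN, a subunit of AP-1, had 960 on the 44 °C array and 478 on the 42 °C array, against 503 in control cells. It lay just past 2-fold, at 1.01, and just short of it with quantile normalisation, at 0.96. At 3 h the signals had been 1510 and 591. All 4 of its probe sets were higher at 44 °C at 6 h, by 0.04 to 1.01. JUN was the 1 member that rose of 12 measured FOS, JUN, ATF and MAF genes, with 0 that fell. Over all genes 2.22% passed 2-fold, and 1 call among so few does not set the list apart. FOS itself differed by 0.48, JUND by 0.72, ATF3 by 0.32 and JUNB by -0.37. The other ATF3 probe sets differed by -0.50 and 1.43, the last past 2-fold. They disagreed in sign, so no direction is given for ATF3. DUSP1, which removes phosphate from JNK and p38, had 336 at 44 °C and 155 at 42 °C, against 59.7 in control cells. Its other probe sets differed by 0.52 (19.1 at 44 °C and 13.4 at 42 °C) and -0.46 (16.1 and 22.2). The other 9 MAP kinase phosphatases ran from -0.36 for DUSP6 to 0.58 for DUSP5.

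EGR1, a zinc finger factor switched on by growth signals, had 78.0 at 44 °C and 256 at 42 °C, against 194 in control cells. At 0, 1 and 3 h the order on the probe set used had been the other way. It had 301, 365 and 284 after 44 °C and 134, 311 and 149 after 42 °C. The difference at 1 h was small, and a dimmer probe set then had 40.4 after 44 °C and 66.2 after 42 °C. The 3 EGR1 probe sets were all lower at 44 °C at 6 h, by -1.71, -0.51 and -0.46. EGR1 was the 1 gene of 24 measured immediate early genes that passed 2-fold, near the 2.22% of all genes. IER5, a heat induced regulator of heat shock factor 1, had 4894 and 3506, both far above the 524 of control cells. MYC had 859 and 1200, against 3123 in control cells.

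**Figure D4:**
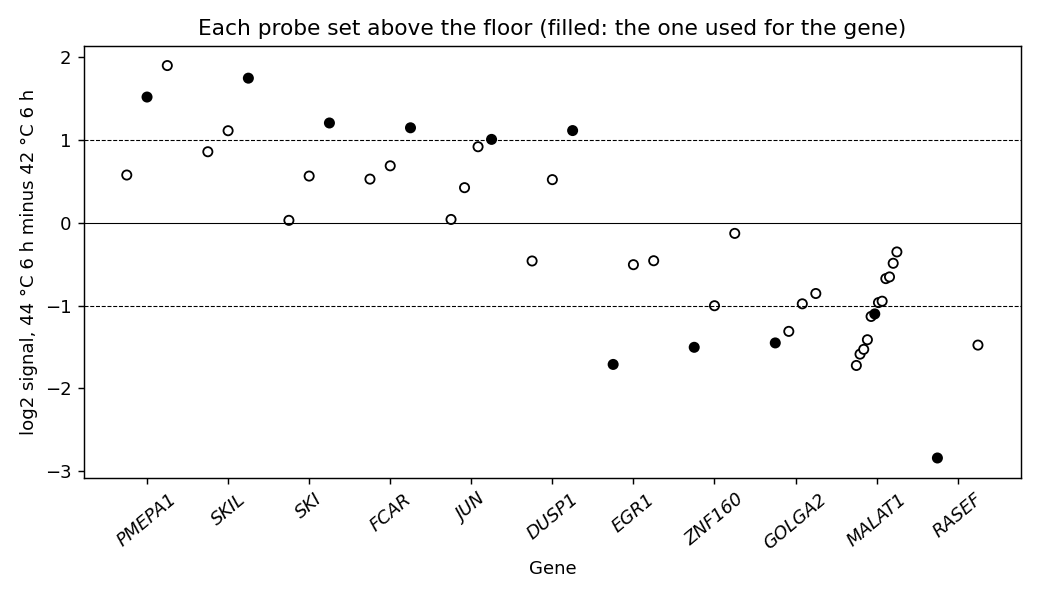
Log2 difference between 44 °C and 42 °C at 6 h for each probe set above the floor on 1 or both arrays, for 11 genes with several probe sets; filled points are the probe set used for the gene. PMEPA1 and SKIL lie above 0 and GOLGA2, MALAT1 and RASEF below 0 with all probe sets, while the DUSP1 probe sets lie on both sides.

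RASEF had the largest fall of the named genes. It is a RAB GTPase with EF-hand domains, also named RAB45. Its signal was 28.5 on the 44 °C array and 204 on the 42 °C array, against 96.0 in control cells, a 7.17-fold difference. Over recovery it had 58.8, 69.1, 69.0 and 28.5 after 44 °C, and 59.7, 233, 79.7 and 204 after 42 °C. The 42 °C signal was high at 1 and 6 h and near the 44 °C signal at 0 and 3 h, with no steady course. Both probe sets above the floor fell, by -2.84 and -1.48. It was the 1 call among 22 measured RAB GTPases and effectors, of which RAB38 came next at -0.97. In a list of this size 1 call is near the 2.22% of all genes that passed 2-fold.

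MALAT1, an abundant long noncoding RNA that stays in the nucleus, had 885 on the 44 °C array and 1898 on the 42 °C array, against 1028 in control cells. All 12 of its probe sets were lower at 44 °C, by -0.35 to -1.72, and 6 of them passed 2-fold. Over recovery it had 821, 618, 724 and 885 after 44 °C, and 392, 1345, 1079 and 1898 after 42 °C. On this probe set the 44 °C signals stayed within a narrow range below control, while those after 42 °C spread widely around it. Not all other MALAT1 probe sets shared this course, and 1 had 44.0, 155, 121 and 115 after 44 °C. At 0 h that probe set had 46.5 after 42 °C, near its 44 °C signal. MALAT1 was the 1 call among 8 measured nuclear RNAs, too few to set against the 2.22% of all genes that passed 2-fold. FTX, a noncoding RNA looked at after the values were seen, had 157 at 44 °C and 398 at 42 °C.

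Probe sets that carry no single gene symbol were lower at 44 °C more often than those with 1 symbol. Of 13522 such probe sets 76 (0.562%) rose and 465 (3.44%) fell, whereas of 41091 with 1 symbol 353 (0.859%) rose and 758 (1.84%) fell. With quantile normalisation 111 rose and 317 fell among those without a single symbol, and 578 rose and 466 fell among those with one. At 0 h the count ran the other way, with 541 that rose and 95 that fell, and it was 122 and 292 at 1 h and 108 and 161 at 3 h. Among those with 1 symbol, 758 rose and 347 fell at 0 h, 443 and 607 at 1 h, and 429 and 417 at 3 h. These are counts of probe sets on 2 arrays and were looked at after the data had been seen.

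Other large falls were spread over unrelated genes. GOLGA2, a Golgi matrix protein, had 51.8 at 44 °C and 142 at 42 °C, with all 4 probe sets lower, by -0.85 to -1.45. ZNF160, a zinc finger protein, had 159 and 451, and its 3 probe sets ran from -1.50 to -0.13. SECISBP2L fell by 1.91 on the log2 scale with 1 probe set and differed by 0.46 with the other. The falls of ERN2 (an IRE1 kinase of epithelia), SPATA33, SLA2 (an adaptor of immune receptors), GNAO1 (a G protein subunit) and ADAM33 (a metalloprotease) were between -2.15 and -1.88, with 44 °C signals of 9.80 to 17.0, at or near the floor, and 42 °C signals of 50.8 to 63.8. Of 466 measured C2H2 zinc finger genes 5 rose and 8 fell, and of 316 solute carriers 4 rose and 6 fell, shares near those of all genes.

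Of 29 measured proapoptotic genes 0 rose and 0 fell, with a median of -0.02, where 2.22% of all genes passed 2-fold. BMF, a BH3-only protein, came closest, with 21.1 at 44 °C and 41.2 at 42 °C. PMAIP1, which encodes NOXA, had 1335 and 1004, against 496 in control cells. BIK, another BH3-only protein, differed by 0.87. Of 16 measured antiapoptotic genes 0 passed 2-fold, with a median of 0.20. In lists of this size a count of 0 is near the share of all genes. The highest were the decoy receptor TNFRSF10D at 0.93, the kinase PIM1 at 0.87 and the caspase inhibitor XIAP at 0.76, and the lowest was CFLAR, the inhibitor of caspase 8, at -0.84. CDKN1A, the cell cycle inhibitor p21, had 246 and 160, against 105 in control cells.

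In the other stress pathways most genes differed little, as across all genes. Of 31 measured ATF4 and amino acid stress genes 0 rose and 0 fell, with a median of 0.15. Of the 27 above the floor on both arrays 8 were below 0 and 19 above, and with quantile normalisation 9 and 18. Over all genes above the floor on both arrays, 50.9% were below 0, and 46.5% with quantile normalisation. DDIT3, the stress factor CHOP, had 108 and 89.1, and PPP1R15A, which lets translation resume, had 647 and 509, against 221 in control cells. Of 25 unfolded protein response genes and 20 NRF2 and metal response genes 0 passed 2-fold. Over all genes 2.22% did, and a count of 0 in lists of this size is near that share. HMOX1, heme oxygenase 1, had 1449 at 44 °C and 1158 at 42 °C, against 114 in control cells. Of 31 measured interferon response genes OAS2 alone fell, with 12.4 at 44 °C, under the floor, and 27.8 at 42 °C. With quantile normalisation it differed by -0.91, and 0 members of the list passed 2-fold. The 1 call under the first scaling is near the 2.22% of all genes. IFIT1, IFIT2 and IFIT3, which encode antiviral proteins, had 369, 384 and 411 at 44 °C and 319, 298 and 437 at 42 °C, against 9.60, 13.3 and 70.1 in control cells. At 3 h these 3 genes had been at 2.85, 6.65 and 37.5 after 44 °C and at 16.0, 19.5 and 23.4 after 42 °C. Their signals were thus high at 6 h at both temperatures alike. A single control array without a recovery time stands behind that statement.

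Mitotic genes were slightly lower at 44 °C as a group. Of 33 measured, 0 passed 2-fold, the median was -0.23, and 25 were below 0, whereas over all genes above the floor on both arrays 50.9% were below 0. With quantile normalisation the median was -0.25 and 26 were below 0. CENPE, a kinetochore motor, had 270 at 44 °C and 509 at 42 °C, against 304 in control cells. KIF23, a motor of cytokinesis, had 409 and 713, against 464, and KIF20A had 365 and 602, against 417. In these 3 genes the 44 °C array was near control and the 42 °C array above it. MAD2L1, of the spindle checkpoint, ran the other way at 0.60. At 3 h the median of the list had been 0.11. The 30 replication genes had a median of 0.05.

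Ribosomal protein genes depended on the scaling. Their median over 58 genes was -0.39, with 51 of the 55 above the floor on both arrays lower at 44 °C, and it was -0.0012 with quantile normalisation, with 28 below 0. ACTB likewise differed by -0.53 under the first scaling and by -0.12 under the second. These are among the brightest genes of the array. No direction is given for them.

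**Figure D5:**
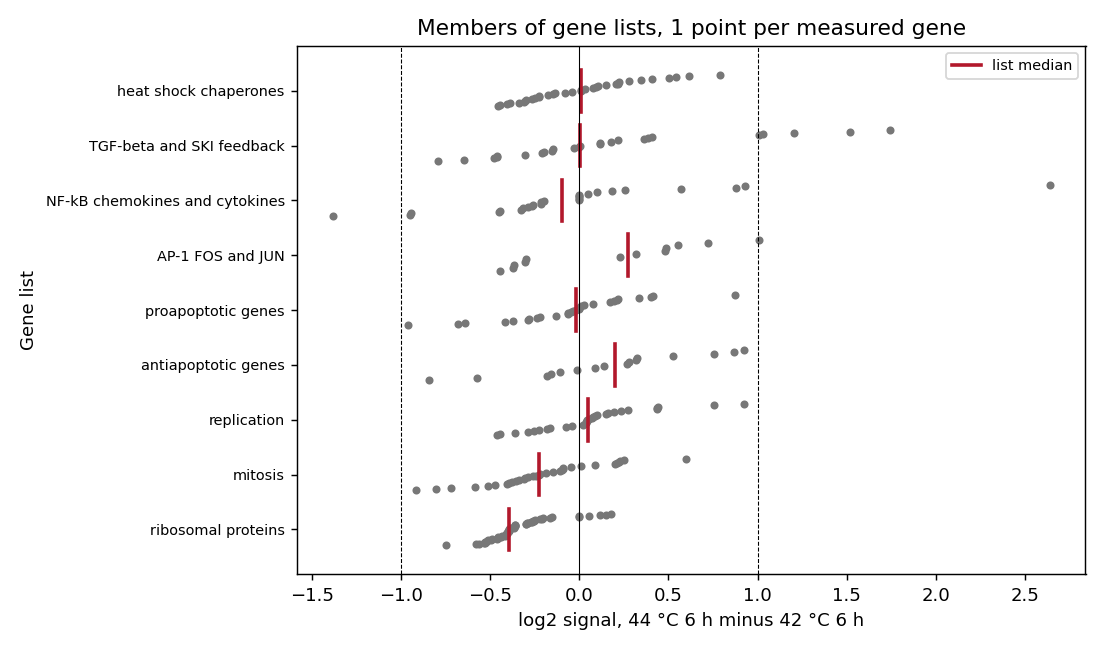
Each point is a measured gene of the list named at the left, placed by its log2 difference between 44 °C and 42 °C at 6 h (within a row, height only spreads the points); red bars are list medians and dashed lines mark 2-fold. Chaperone, replication, mitosis and ribosomal protein genes stay inside the dashed lines, and SKIL, PMEPA1, SKI, LTBP3, ID3, CCL20 and JUN lie at or past the right one.

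No marker of monocyte-like cells separated the arrays. Of 12 measured monocyte-like markers 9 were above the floor on both arrays, among them PTPRC at 471 and 446, LYZ at 1800 and 2066 and CTSG at 3450 and 3415. A count of 0 past 2-fold among these markers is near the 2.22% of all genes. CD14, MPO and FCGR1A were under the floor on both. The summed signal of these markers was 7570 at 44 °C and 7955 at 42 °C. T cell markers summed to 44.0 and 69.0 over 8 genes, with CD3D, CD3E and CD3G under the floor, and CD2 at dim signals of 12.9 and 26.3, a difference of -1.03 that was -0.77, short of 2-fold, with quantile normalisation. B cell markers summed to 112 and 77.3 over 5 genes and erythroid markers to 101 and 119 over 4. Epithelial and fibroblast markers summed to 226 and 342, of which COL1A1 gave the most (200 and 268, against 8.37 in control cells), with KRT8 past 2-fold at the floor. The part of these sums in other results was not tested.

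Of the 12731 genes above the floor on 1 or both arrays at 6 h, 199 had been 2-fold higher and 178 2-fold lower at 3 h. Of the genes that rose at 6 h, 13 had also risen at 3 h (7.74% of the 6 h list and 6.44% of the 3 h list), among them JUN, IL1RAP, CASTOR2 and STOX2, and 5 had been 2-fold lower. Of the genes that fell at 6 h, 14 had also fallen at 3 h (5.17% and 7.25%), among them INSR, the insulin receptor, and WNT5B, and 9 had been 2-fold higher. In 58 of the 168 risen genes the 44 °C array at 6 h was the highest of all 9 arrays, and in 81 the 42 °C array at 6 h was the lowest. In 92 of the 271 fallen genes the 44 °C array at 6 h was the lowest, and in 173 the 42 °C array at 6 h was the highest. Of all 12731 genes above the floor on 1 or both arrays, the 44 °C array at 6 h was the highest in 1505 and the lowest in 1535, and the 42 °C array at 6 h was the highest in 2323 and the lowest in 1918. Choosing genes by this very difference favours such extremes, so the counts only describe the arrays.

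In 297 genes (1.5%) all 4 arrays at 44 °C lay above all 4 at 42 °C, and in 413 (2.09%) all lay below, and 19 and 25 of these were among the risen and fallen genes at 6 h. DDX3X, an RNA helicase of translation and stress granules, had 2562, 2771, 3019 and 2966 at 0, 1, 3 and 6 h after 44 °C, and 1274, 1498, 1971 and 1461 after 42 °C, against 2838 in control cells. The 44 °C signals were thus near control and those after 42 °C lower at every time. Its log2 difference at 6 h was 1.02, and its 4 probe sets above the floor ran from 0.36 to 1.02. CIRBP, a cold-inducible RNA binding protein, showed the same order, with 1024, 1060, 1016 and 1005 after 44 °C and 614, 555, 609 and 505 after 42 °C, against 1053 in control cells. It stood just short of 2-fold at 6 h, at 0.99, and its 5 probe sets ran from -0.06 to 0.99. INSR was lower at 44 °C throughout, with 38.2, 83.0, 80.2 and 76.1 after 44 °C and 83.6, 183, 167 and 169 after 42 °C. These 3 genes were picked after their values were seen.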

How the data were processed

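The authors deposited an intensity on a linear scale for each of 54675 probe sets on each array, made with MAS5 per the submitters' processing notes. Its scaling target is not given in the sources used here. Each array was multiplied by 1 factor (0.524 for 44 °C and 0.921 for 42 °C at 6 h) to a trimmed mean of 100 over 54613 probe sets that are not controls, trimming 2% at each end, and log2 was taken after a floor at the median of all scaled values. Such scaling can shift bright genes as a group. Genes were named from the platform annotation where a probe set had 1 symbol, and each of 19775 genes was read from its brightest probe set (mean log2 signal, 9 arrays). With 1 array per condition no test was run, and precision is limited by the number of arrays. Groups came from the sample labels.

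Named genes were the 15 largest rises and 15 largest falls past 2-fold under both this scaling and quantile normalisation, with 4 times the floor on the higher array and no other probe set 0.5 or more on the other side of 0. To these came up to 6 members past 2-fold from each of 42 gene lists, and 38 genes named whatever their values. Clone and frame names, histones and immunoglobulins were left out of the largest changes. The members, lists and rules were chosen with earlier results of these data known, and the counts over several probe sets and at 4 times the floor were added after the values were seen. Of 82 named genes, 67 had a RefSeq promoter window. Python 3.11.15, pandas 2.3.3, numpy 2.4.6 and statsmodels 0.14.6 were used. Alternatives were quantile normalisation, centring, other floors, other probe sets per gene and other sizes of change.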

Additional observations from a re-analysis of the deposited data

Results flagged for a closer look

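A total of 5 named genes passed 2-fold in one direction at 6 h and in the other at 3 h. The difference between the times was not tested, since each value rests on 1 array a side. H3C8, a histone H3 gene, had 31.1 at 44 °C and 6.67 at 42 °C at 6 h (log2 difference 1.31), and 20.9 and 58.5 at 3 h (-1.48). ID3 had a log2 difference of 1.01 at 6 h and -1.37 at 3 h, with 25.3 at 44 °C and 65.3 at 42 °C at 3 h. ZNF335, a zinc finger protein, had 35.0 at 44 °C and 84.0 at 42 °C at 6 h (-1.26), and 75.8 and 21.1 at 3 h (1.84). TBC1D24 had 24.5 and 68.2 at 6 h (-1.48), and 74.4 and 29.1 at 3 h (1.36). GNAO1 had 16.4 and 63.8 at 6 h (-1.96), and 151 and 34.6 at 3 h (2.12). All these signals were 151 or lower, and 2-fold differences between the arrays at 6 h were most common among dim genes.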

How the results depend on the processing

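No paired analysis was possible because each condition had 1 array. The counts of rises and falls, 168 and 271, became 254 and 167 with quantile normalisation, 212 and 205 with centring that follows signal, 1154 and 2114 with a floor set at the 25th percentile, 31 and 28 with one at the 75th, and 114 and 217 with the median over probe sets. They were 813 and 1198 at 1.5-fold, 14 and 29 at 3-fold, and 6 and 4 at 4-fold. At 4 times the floor they were 81 and 98, and 1 and 7 where all of 2 or more probe sets had to pass. The 44 °C array against control gave 496 and 523, the 42 °C array 512 and 470, and the temperatures at 3 h 202 and 193. Of listed genes 42 passed 2-fold, against 178 and 10 with the lower and the higher floor and 27 with the median over probe sets. Of named genes 52 passed, 13 with the higher floor, 32 with the median over probe sets and 5 at 3 h. Under all 8 alternatives 7 of them stayed past 2-fold in their direction: CCDC117, FBXW5, MALAT1, RASEF, SKIL, SUCO and ZNF160. With the probe set brightest on the 2 arrays, ERCC2 (-0.41), ZNF569 (-0.35) and SECISBP2L (0.46) reversed, since another probe set then stands for each gene. CCL20 kept its call under 7 of 8 and lost it with the higher floor, which lies above its signal. The cause of the shifts with scaling was not tested. Signals near the floor limit what can be said of dim genes. The median of ribosomal proteins, -0.39, was -0.0012 with quantile normalisation and -0.12 with centring that follows signal, and those of chaperones and mitotic genes shifted by 0.1 or less under all 8.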
